A study of Mus musculus with 4 samples.

Results

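Binding of phosphorylated STAT3 (pSTAT3) was examined at 10 genes of the hypoxia response and of glycolysis: Hif1a, Egln3, Slc2a1, Hk2, Pfkfb3, Pkm, Ldha, Pdk1, Vegfa and Bnip3. The genes were chosen by name, and their regions were the rows of the authors' table of reproducible regions that carry one of these names, counted once per region. Of 12925 reproducible regions, 11 were listed for 6 of the 10 genes, and 9 of those 11 lay within 25 kb of a listed transcript of the gene. Slc2a1, Hk2, Pdk1 and Vegfa had no row, and so no reproducible region within 25 kb. The measurements were made by chromatin immunoprecipitation and sequencing with an antibody to tyrosine-phosphorylated STAT3. The cells were oligodendrocyte progenitors, the dividing precursors of myelinating oligodendrocytes, taken as primary cells from the cortex of the mouse strain C57BL/6. All cells were grown with the mitogens PDGF-AA at 10 ng/ml and bFGF at 20 ng/ml and then received the cytokine CNTF at 100 ng/ml for 15 min. The series has 2 ChIP libraries, called library 1 and library 2 here, and 2 input libraries, which were not analysed here. Every library came from treated cells, so no level without CNTF is known. Separate cultures are not stated in the labels, and lysed cells were pooled, so the spread between the libraries may be technical. Expression was not measured, and neither the cell type markers nor the RNA of the 10 genes could be checked.

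Hypoxia-inducible factors are pairs of an oxygen-sensitive alpha subunit, such as HIF1A, and a stable partner. In the presence of oxygen, prolyl hydroxylases mark the alpha subunit for degradation, and when oxygen falls the pair binds a short DNA element, the hypoxia response element, and raises genes of glucose uptake, glycolysis, blood vessel growth and mitochondrial turnover. STAT3 is phosphorylated by JAK kinases below the gp130 receptors that CNTF engages, and then binds DNA as a dimer at paired half-sites.

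Promoter sequences were read at Ldha and Pfkfb3, the genes with a region midpoint within 1 kb of a listed start. Whether their letters bear on the binding was not tested. The 250 bases before the RefSeq start whose promoter window holds both summits are shown for these genes (GRCm38.p6, 5′ to 3′ along the gene). The promoter of Bnip3, which holds the same 6 letters but had no peak within 5 kb of its start in either library, is shown for contrast and was chosen after its values were seen. Capitals mark each match to ACGTG, the core of hypoxia response elements, on either strand. A match on both strands at once gives the palindrome CACGTG, so each CACGTG is also a pair of ACGTG matches.
Ldha promoter, chr7:46845554-46845803, plus strand: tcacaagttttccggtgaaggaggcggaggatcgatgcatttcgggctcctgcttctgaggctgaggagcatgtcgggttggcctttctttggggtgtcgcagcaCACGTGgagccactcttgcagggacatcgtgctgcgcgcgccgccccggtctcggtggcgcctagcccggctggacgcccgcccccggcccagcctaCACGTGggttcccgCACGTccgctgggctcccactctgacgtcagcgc
Pfkfb3 promoter of the internal start, chr2:11502091-11502340, minus strand: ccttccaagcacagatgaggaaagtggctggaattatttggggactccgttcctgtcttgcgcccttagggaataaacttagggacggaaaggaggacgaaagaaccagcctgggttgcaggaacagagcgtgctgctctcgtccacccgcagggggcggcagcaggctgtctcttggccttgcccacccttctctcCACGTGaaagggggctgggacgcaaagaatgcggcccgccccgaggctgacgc
Bnip3 promoter, chr7:138909507-138909756, minus strand: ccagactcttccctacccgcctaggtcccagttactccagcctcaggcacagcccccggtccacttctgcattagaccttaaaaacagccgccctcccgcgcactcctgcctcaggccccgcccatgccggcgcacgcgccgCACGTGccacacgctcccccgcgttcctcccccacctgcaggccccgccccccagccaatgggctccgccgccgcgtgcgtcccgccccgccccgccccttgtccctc

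Counting back from the RefSeq start, which is base 0, the Ldha promoter has CACGTG with its first base at -145 and again at -48, and a lone reverse-strand match from -34 to -30. The summits of the Ldha peak lay at -37 bp in library 1 and at -34 bp in library 2, beside the matches that begin at -48 and -34. In the Pfkfb3 promoter CACGTG begins at -53 bp, and the summits lay at -13 bp in library 1 and at 10 bp past the start in library 2. In the Bnip3 promoter CACGTG begins at -108 bp. None of these stretches holds TTCNNNGAA, the paired half-site pattern of STAT sites, and neither did any of the 15 RefSeq promoter windows of the 10 genes, which run from 250 bases before a start to 50 after it. Both patterns were searched on both strands over all 32851 promoter windows of the same 300 bases. TTCNNNGAA was in 8.30% of them, and in 21.2% of the 1264 windows that hold the summits of both libraries in a reproducible region. ACGTG was in 10 of the 15 windows of the 10 genes, in 19.6% of all windows and in 29.1% of the 1264. CACGTG was in 4 of the 15 windows (Ldha, Pfkfb3, Bnip3 and Hif1a), in 7.15% of all windows and in 12.9% of the 1264. A match describes letters only, and the windows do not cover the regions that lie farther from a start.

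**Figure D1:**
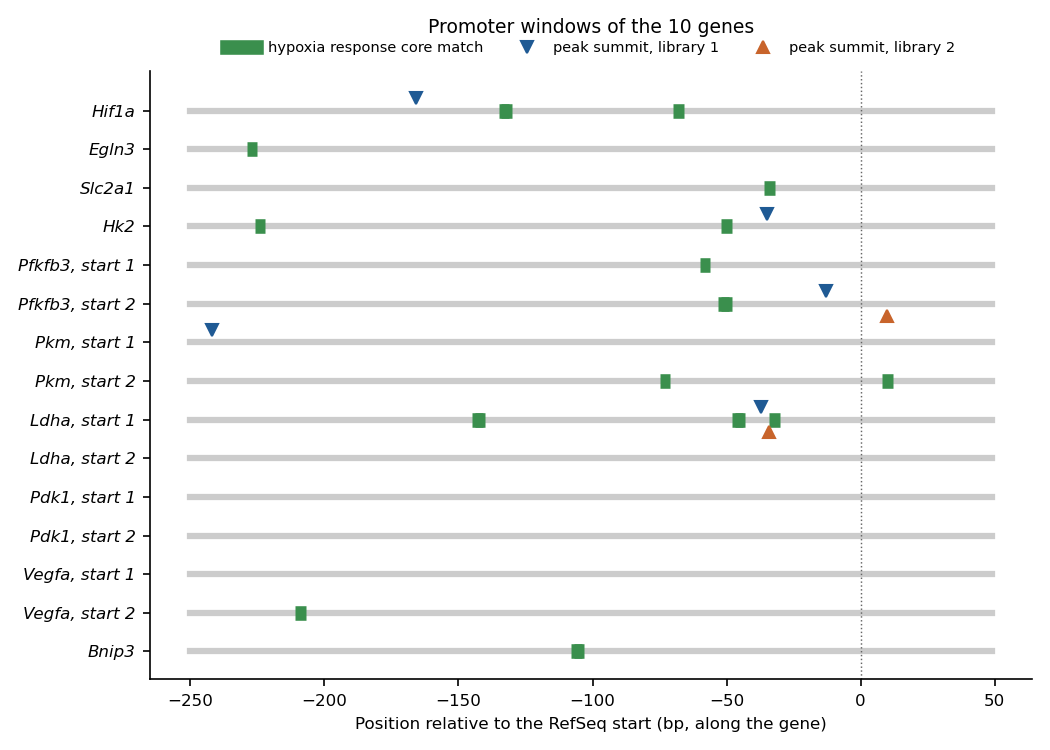
Positions of matches to the hypoxia response core (green) and of peak summits of library 1 (blue, above) and library 2 (orange, below) along the 15 RefSeq promoter windows of the 10 genes, in bp from the start. Ldha start 1 and Pfkfb3 start 2 hold a summit of both libraries, and 10 of the 15 windows hold at least 1 match.

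A reproducible region had its midpoint within 5 kb of a listed transcript start at 4 of the 10 genes, Hif1a, Pfkfb3, Pkm and Ldha, where the share over 21887 protein-coding genes was 18.1%. Within 1 kb of a listed start the count was 2 of 10, Pfkfb3 and Ldha, with 12.8% over all protein-coding genes. Within 25 kb of a listed transcript it was 6 of 10, with Egln3 and Bnip3 added, beside 41% of all protein-coding genes. With 10 genes picked by name, these counts are a description and were not tested. For a gene with a region, strength is given in each library by its strongest overlapping peak, as fold enrichment, the ratio of fragments stacked at the summit (the pileup) to the local background. The lower of the values in both libraries was used to rank regions. Taking the strongest region of each gene within 25 kb, the 6 genes with one had a median lower fold enrichment of 11.6, where the median over the 8970 protein-coding genes with one was 9.17. Taking only regions within 5 kb of a start, the median was 13.7 for the 4 genes with one and 7.94 for the 3958 protein-coding genes with one.

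Library 1 gave 42189 peaks and library 2 gave 26649, and the lowest local background was 4.72 fragments in library 1 and 2.91 in library 2. The median fold enrichment over all regions was 10.4 in library 1 and 7.51 in library 2, and it was higher in library 1 in 95.1% of regions, with a median ratio of 1.33. All 9 regions within 25 kb of the 10 genes were likewise higher in library 1. The count of peaks near the 10 genes also differed, with 32 in library 1 and 19 in library 2. Of these, 17 in each library overlapped a peak of the other library, and 9 in each lay in a reproducible region. Over the genome, 56.6% of library 1 peaks and 92.3% of library 2 peaks overlapped a peak of the other library.

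**Figure D2:**
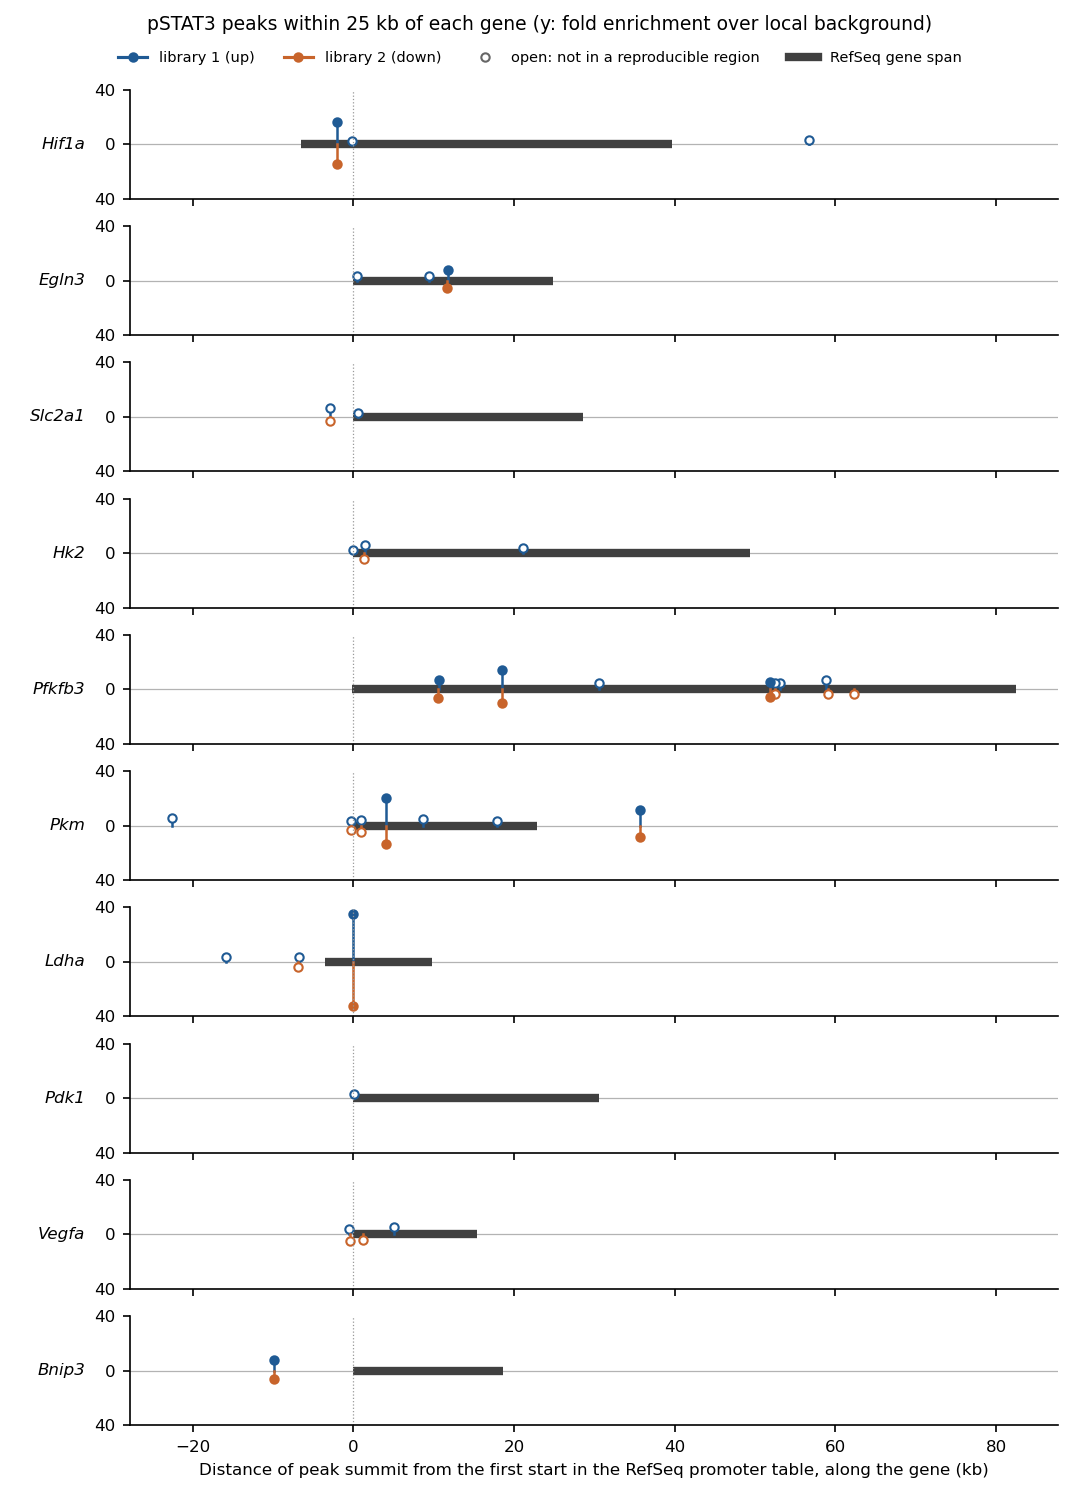
Every peak within 25 kb of the 10 genes, by distance of its summit from the first start in the RefSeq promoter table (kb, along the gene), with fold enrichment upward for library 1 and downward for library 2; filled points lie in a reproducible region and the thick bar is the gene. The Ldha start carries the tallest pair, 35.4 and 32.2, and Pdk1 has a single low peak in library 1.

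Hif1a encodes the oxygen-sensitive alpha subunit itself. Its nearest region, at chr12:73905648-73906024, reached a fold enrichment of 16.8 in library 1 (pileup 95) and 14.1 in library 2 (pileup 54). The midpoint lay inside the gene, 4461 bp downstream of the most upstream listed start and 2068 bp upstream of the nearest one. Both libraries therefore placed binding between alternative starts of Hif1a, with summits 14 bp apart. By lower fold enrichment the region ranked 2198 of 12925, and 82.8% of regions were weaker. The table lists 2 further regions for Hif1a, both outside 25 kb. The region 58.5 kb upstream of the first transcript had fold enrichments of 7.35 and 5.38 in libraries 1 and 2. The region 110 kb upstream, 11.4 and 8.99, is listed for Prkch as well, whose transcript ends 12.2 kb away. At the start in the RefSeq promoter table, library 1 alone had a peak of 2.83-fold at -166 bp, and library 2 had none there.

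Egln3 encodes an oxygen-dependent prolyl hydroxylase that marks HIF alpha subunits and is itself raised by HIF. Its region, chr12:54191939-54192336, lay 11.7 kb inside the gene, with fold enrichments of 8.05 in library 1 (pileup 45) and 5.17 in library 2 (pileup 21). This was the weakest of the 9 regions by the lower fold enrichment, and only 16.2% of all regions were weaker. The summits of the libraries were 162 bp apart, the widest gap among the regions of the 10 genes, whose median gap was 20 bp. Its irreproducible discovery rate (IDR), which estimates the chance that a region is not reproducible and is at most 0.05 in the table, was 0.0111. A peak 412 bp downstream of the RefSeq start was found in library 1 alone, at 3.67-fold.

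Slc2a1 encodes GLUT1, the glucose transporter, and Hk2 encodes hexokinase 2, which traps glucose in the cell as a phosphate; neither had a reproducible region. Peaks of both libraries nevertheless overlapped near each. At Slc2a1 they lay 2.93 kb upstream of the start in library 1 (6.90-fold, pileup 51) and 2.91 kb upstream in library 2 (2.92-fold, pileup 13). The summits were 19 bp apart, but library 1 stood 2.37 times above library 2. The 95th percentile of that ratio over all reproducible regions was 1.82. This pair is in no region, and the spread of the ratio over such pairs is not given, so the comparison is with an unlike set. At Hk2 the peaks lay 1.39 kb downstream of the start in library 1 (6.22-fold, pileup 56) and 1.34 kb downstream in library 2 (3.93-fold, pileup 20). The local background behind these pairs was 6.53 and 3.80 fragments at Slc2a1 and 8.16 and 4.34 at Hk2 in libraries 1 and 2, in all cases above the lowest of the library. Library 1 alone also had a peak of 3.15-fold 557 bp downstream of the Slc2a1 start, and peaks of 2.40-fold at -35 bp and 3.90-fold at 21.2 kb at Hk2.

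Pfkfb3 encodes the bifunctional enzyme that makes fructose 2,6-bisphosphate, the main activator of phosphofructokinase. It had 3 regions, all inside the gene, which spans 82.6 kb. The strongest, chr2:11535261-11535646, had fold enrichments of 14.4 in library 1 (pileup 115) and 9.91 in library 2 (pileup 52) and ranked 4131. It lay 18.5 kb downstream of the nearest Pfkfb3 start, and a start of the transcript RP23-307N14.2 was nearer, at 759 bp. The second, chr2:11543208-11543461, lay 10.6 kb inside and had fold enrichments of 7.17 and 6.40. The region at the internal start, chr2:11501906-11502309, was the weakest of the 3, with 5.58-fold in library 1 (pileup 41) and 5.38-fold in library 2 (pileup 20). It lay 52.0 kb downstream of the most upstream start, and its midpoint was 6 bp from a listed start there. Its ratio of library 1 to library 2, 1.04, was the nearest to equality of the 9 regions, and its IDR of 0.0223 was the highest. Of the 8970 protein-coding genes with a region within 25 kb, 18.7% had 3 or more, as Pfkfb3 did, and 57.6% had 1. A pair of overlapping peaks without a region flanked the internal start as well, at 4.55-fold (665 bp downstream) in library 1 and 3.74-fold (603 bp downstream) in library 2.

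Pkm encodes pyruvate kinase, the last enzyme of glycolysis before pyruvate. The region chr9:59660479-59661011 lay inside the gene, 4377 bp downstream of the nearest listed start, with fold enrichments of 20.4 in library 1 (pileup 136) and 13.3 in library 2 (pileup 58). It ranked 2496, with 80.7% of regions weaker, and its summits were 5 bp apart. The other region, chr9:59691729-59692414, had 11.2-fold in library 1 and 8.17-fold in library 2, and lay 12.4 kb past the 3′ end of Pkm and inside Gramd2, so it is nearer to that gene. At the 2 RefSeq starts of Pkm both libraries had low peaks that were not in a region. They reached 3.22-fold and 3.52-fold, 242 and 251 bp before the first start, and 4.04-fold and 4.37-fold, 299 and 247 bp after the second. At both of these pairs library 2 was the higher, unlike at the listed regions.

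Ldha encodes the lactate dehydrogenase subunit that turns pyruvate into lactate. Its region, chr7:46845264-46846775, was the strongest of the 10 genes, with fold enrichments of 35.4 in library 1 (pileup 223) and 32.2 in library 2 (pileup 137). It ranked 197 of 12925, so that 98.5% of regions were weaker, and only 55 of the 3092 regions with a midpoint within 1 kb of a listed start were stronger. The ratio between the libraries was 1.10, so they nearly matched. At 1512 bp it was also wide, ranking 170 by width where the median was 504 bp, and the summits were 3 bp apart. The edges of the region were those of the library 1 peak. The library 2 peak was narrower, at chr7:46845398-46846181. The midpoint was 78 bp upstream of a listed start. The table also lists this region for Ldhc, 15.2 kb from its start, for the pseudogene Gm9392 and for Gtf2h1, whose transcript ends 22.4 kb away. A low pair of overlapping peaks 6.83 kb upstream, at 3.67-fold and 4.10-fold, was in no region.

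Pdk1 encodes a kinase that switches off pyruvate dehydrogenase and so keeps pyruvate out of mitochondria. It had the fewest peaks, 1 in library 1 at 3.28-fold (pileup 21), 77 bp downstream of a start, and 0 in library 2, within 25 kb of the gene.

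Vegfa encodes the vessel growth factor, a classical HIF target. Overlapping peaks lay 521 bp upstream of the start in library 1 (3.85-fold, pileup 21) and 453 bp upstream in library 2 (4.70-fold, pileup 19). Library 2 was the higher there. Vegfa also had a peak of 5.35-fold in library 1 alone (pileup 30) and of 4.10-fold in library 2 alone (pileup 15), at different places in the gene.

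Bnip3 encodes a mitochondrial receptor for mitophagy. Its region, chr7:138919272-138919541, was found at 9.89 kb before the nearest Bnip3 start, with fold enrichments of 7.55 in library 1 (pileup 62) and 6.04 in library 2 (pileup 28). The pseudogene Gm9358 was nearer, at 5.02 kb from its start. No peak of either library lay within 5 kb of a Bnip3 start, which set it apart from the other 9 genes, each of which had a peak of library 1 there.

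Among themselves the 9 regions spread from a lower fold enrichment of 5.17 at Egln3 to 32.2 at Ldha, with a median of 8.17 where all regions had a median of 7.48, and 5 of the 9 were above that. Of the 9, 7 lay inside the gene or at a start, and 3 were wider than the median. No share over all regions is given for that placing, so the count of 7 is a description only. In order of lower fold enrichment Ldha stood apart, followed by Hif1a at 14.1 and Pkm at 13.3, then the strongest Pfkfb3 region at 9.91 and the outer Pkm region at 8.17. For Hif1a and Pkm the order depends on the library, since Pkm was the higher in library 1 and Hif1a in library 2. The remaining 4 regions, at 6.40 (Pfkfb3), 6.04 (Bnip3), 5.38 (Pfkfb3) and 5.17 (Egln3), followed one another in steps smaller than the difference between the libraries at Bnip3 and Egln3.

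**Figure D3:**
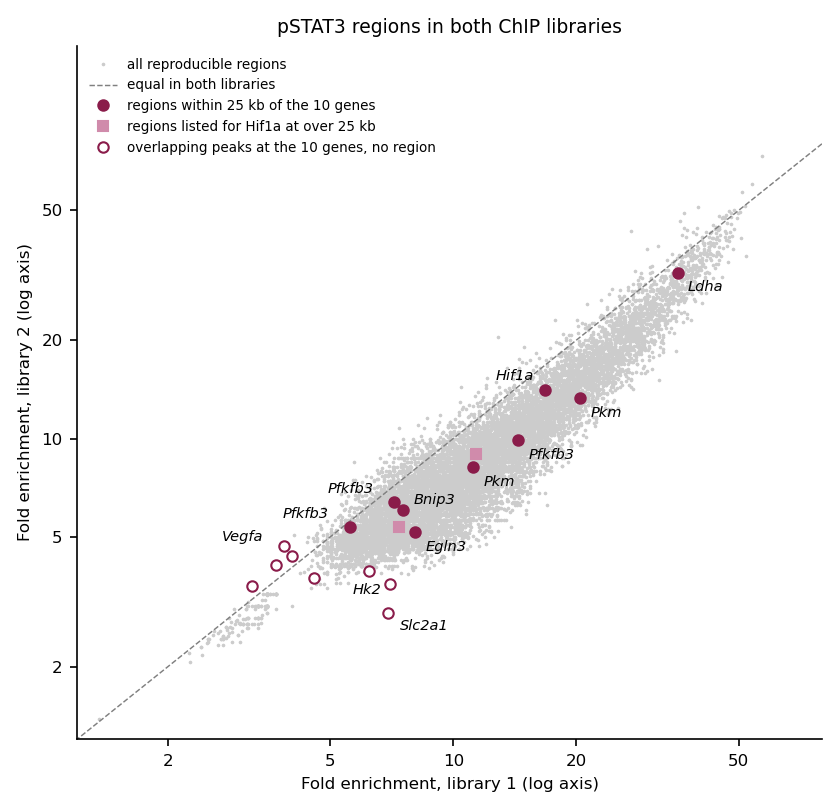
Fold enrichment in library 1 (x) and library 2 (y) on log axes for all 12925 reproducible regions (grey), the regions within 25 kb of the 10 genes (filled circles), the distant regions listed for Hif1a (squares) and overlapping peaks at the 10 genes that are in no region (open circles). All 9 filled circles lie below the dashed line of equality, and Ldha lies near the top of the cloud at 35.4 and 32.2.

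Overlapping peaks in both libraries, whether or not a region was deposited, lay within 5 kb of a RefSeq start at 7 of the 10 genes, beside 28.8% of the 17492 protein-coding genes with such a start. The genes added by this count were Slc2a1, Hk2 and Vegfa. Taking library 1 alone, 9 of 10 genes had a peak within 5 kb of a start, beside 45.5% of all, and with library 2 alone 7 of 10 had one, beside 30.7%. The 8 overlapping pairs without a region lay at 6 of the genes. At Hk2 and Slc2a1 the mean -log10 p of the pair, 18.1 and 16.3, was above that of the listed region at the internal Pfkfb3 start, 15.4. This held in library 1, at 28.1 and 28.3 beside 19.7 for that region. In library 2 both pairs were below that region, at 8.10 and 4.35 beside 11.2. Across the genome 1427 unlisted pairs, 12.9% of 11065, were above the mean of 15.4, so a missing row does not show that peaks were missing.

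The counts around the 10 genes were set beside wider lists of related genes that do not hold them. Of 32 further glycolysis genes, 8 (25%, beside 18.1% of all protein-coding genes) had a region within 5 kb of a start. The strongest were at the aldolase gene Aldoc, with 30.6-fold in library 1 and 24.7-fold in library 2, and at Pfkfb1, another gene of the Pfkfb3 family, with 28.8-fold and 20.7-fold. Pfkfb2 (10.2 and 6.11), the enolase genes Eno1 (7.58 and 5.98) and Eno3 (5.81 and 5.41) and the phosphofructokinase gene Pfkm (6.64 and 5.27) were lower. Regions stood near starts at Ldha, Pkm, Pfkfb3, Pfkfb1, Pfkfb2 and Aldoc, among others. The table gave none within 5 kb of a start of Gapdh, Pgk1, Aldoa, Tpi1 or Ldhb, genes picked after their values were seen. Within 25 kb of a transcript, Gapdh (lower fold enrichment 17.0), Pgk1 (8.96) and Aldoa (4.08) had a region, and Tpi1 and Ldhb had none. At that distance 18 of the 32 genes (56.25%) had a region, beside 41% of all protein-coding genes.

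Of 16 genes of oxygen sensing, 4 (25%, beside 18.1% of all protein-coding genes) had a region within 5 kb of a start. They were Egln2, another HIF prolyl hydroxylase, with 25.7-fold and 24.3-fold in libraries 1 and 2, Eloc, a subunit of the ubiquitin ligase that takes up hydroxylated HIF alpha, with 26.2-fold and 16.9-fold, its partner Rbx1 with 7.29-fold and 7.42-fold, and Cited2, which competes with HIF for a coactivator, with 8.75-fold and 7.17-fold. The Egln2 region was thus stronger than the Egln3 region in both libraries, and it lay 727 bp from a listed start where that of Egln3 lay 11.7 kb inside the gene. No such region was listed for Epas1, Arnt, Vhl or Egln1.

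Of 31 further HIF targets, 12 (38.7%) had a region within 5 kb of a start, beside 40% of the 10 genes and 18.1% of all protein-coding genes. Within 1 kb of a start the share was 12.9%, beside 20% of the 10 genes and 12.8% of all. Their strongest regions within 5 kb had a median lower fold enrichment of 6.93, beside 13.7 for the 10 genes and 7.94 for all. The strongest was at Bhlhe40, a transcriptional repressor, with 33.8-fold and 26.5-fold in libraries 1 and 2, which was the only region of the wider lists with a lower fold enrichment above that of Aldoc. The haem oxygenase gene Hmox1 (13.9 and 12.9), Bhlhe41 (10.5 and 8.61), the histone demethylase gene Kdm4b (13.8 and 8.45) and Ndrg1 (8.32 and 10.2) were lower. Ndrg1 was higher in library 2, unlike the 9 regions of the 10 genes.

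Of 24 genes of pyruvate dehydrogenase and the TCA cycle, the pathway that Pdk1 and Ldha divert pyruvate from, 5 (20.8%) had a region within 5 kb of a start. These were Sucla2 (11.5-fold and 7.75-fold), Pdha1 (8.05 and 7.42), Idh1 (9.66 and 6.58), Suclg1 (7.28 and 4.81) and Sdhd (3.13 and 2.70), none as strong in either library as the regions of Ldha, Hif1a or Pkm near a start. Over the 103 genes of the wider lists together the share was 28.2%, beside 18.1% of all protein-coding genes. Counting only the stronger 6463 regions, it was 9.71% beside 9.88%, so the wider lists then stood at the level of all genes, while 3 of the 10 genes (Hif1a, Pkm and Ldha) still had one. Within 1 kb of a start it was 20% for the 10 genes and 16.5% for the 103, beside 12.8% of all. The lists were chosen with results of these data known, and no list was tested against the others.

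**Figure D4:**
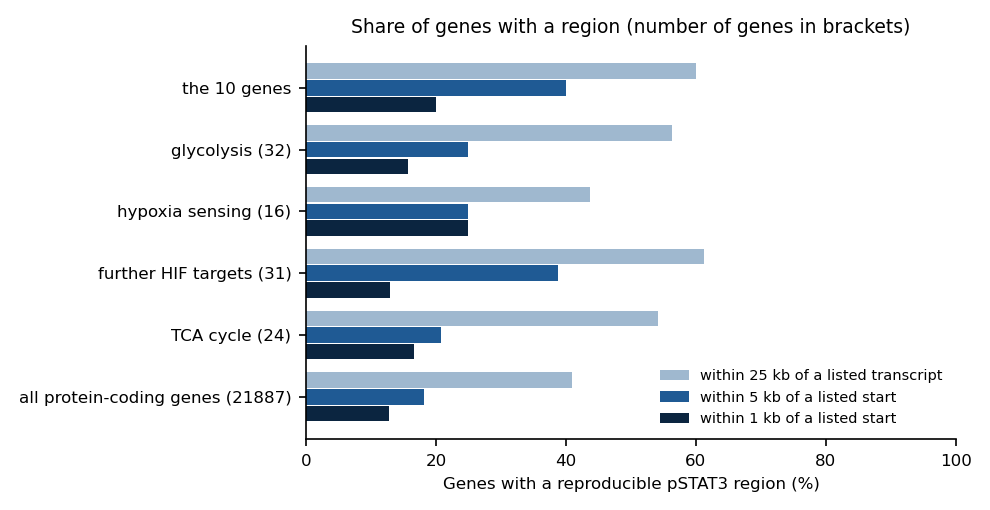
Share of genes (%) with a reproducible region within 25 kb of a listed transcript (pale), or with its midpoint within 5 kb (mid blue) or 1 kb (dark) of a listed start, for the 10 genes, 4 wider lists and all protein-coding genes. The 10 genes stand at 60%, 40% and 20%, and all protein-coding genes at 41%, 18.1% and 12.8%.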

How the data were processed

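CASAVA 1.8, Bowtie2 and MACS2 are the tools named, with the build GRCm38.p3 and without options, in the submitters' processing notes. The authors deposited a peak list for each ChIP library and a table of regions reproducible in both. Per the file headers of the lists, the pileup signal counts fragments stacked at a summit, and the fold enrichment is the authors' ratio over a local background; from the values, 1 is added to both. Columns with damaged headers hold, from their values and place, the deposited -log10 p and -log10 q. In the deposited table the column headed as an adjusted p-value holds the IDR. The pair of its columns that is headed as pileup and fold enrichment holds the same values in both, and in the 11 regions of the 10 genes they equal the authors' mean -log10 p of both libraries within 0.001. So they were not used, and each region took the strongest peak of each library that overlaps it by 1 bp or more.

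Starts were those of the Ensembl transcripts in the authors' table, or for peaks outside regions those of a RefSeq promoter table (GRCm38.p6), which also gave the sequences. Distances run from a region's midpoint or a peak's summit. No exons or genome were used, so exon, intron and UTR classes were not assigned and bases under other regions were not read. Scripts ran in Python 3.11.15 (numpy 2.4.6, pandas 2.3.3, matplotlib 3.10.9). They recovered 100% of overlaps and nearby starts planted in 2000 simulated peaks, and of copies of the STAT pattern planted in separate random sequences. The search for ACGTG was not part of that check. Sequencing depth itself was not available, and the local background, (pileup + 1)/fold - 1, is only an indirect guide to it.

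The 10 genes and the wider lists were chosen with earlier results of these data known, so counts carry no test. All 10 genes were named, with up to the 6 strongest of each wider list and the other genes listed for a region; wider-list genes named without a region were chosen after their values were seen. Values of 1 gene that this rule names are not reported here. Alternatives were an IDR of 0.01, the stronger 6463 regions, windows of 1, 10 and 25 kb, either end of the RefSeq gene, each library alone, the peak with the nearest summit, an overlap of 50%, summits within 100 bp and a -log10 q of at least 10. RefSeq starts were added after the data were seen.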

Additional observations from a re-analysis of the deposited data

How the results depend on the processing

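The count of 4 of the 10 genes with a region at most 5 kb from a start fell to 2 with a window of 1 kb and ran from 7 to 9 with each library alone, where single peaks replace regions. The 4 was 3 at an IDR of 0.01, without Pfkfb3, beside 14.8% of all protein-coding genes, and 3 among the stronger regions. Of the 11 listed regions 6 were among the stronger ones. For the wider lists the share of 28.2% became 9.71% among the stronger regions, 16.5% within 1 kb and 44.7% within 25 kb of a start, and ran from 42.5% to 71.3% with each library alone. For all protein-coding genes the 18.1% became 9.88% among the stronger regions and 34.3% within 25 kb of a start, and ran from 30.7% to 45.5% with each library alone. The number of the 10 genes with peaks in both libraries near a start, 7, fell to 3 (Hif1a, Pkm and Ldha) at a -log10 q of at least 10. No share over all genes is given at that cut, so this count of 3 is a description only. The other 21 values stayed within 1.5 times the reported ones. The 9 regions near the 10 genes each overlapped a single peak per library, so taking the nearest summit could not change their fold enrichment. Requiring an overlap of 50% changed the fold enrichment of 0 of the 9. With each library alone, distances were taken from RefSeq starts over 17492 genes. The lowest background of library 1 was 1.62 times that of library 2, and whether this reflects depth was not tested. Whether peaks found in library 1 alone, as at Pdk1, were below what library 2 could detect was not tested either.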
